A study of Homo sapiens with 6 samples.

Results

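The 9 genes described here encode HEXIM1, the proteins LARP7 and MEPCE, the kinase CDK9 with its cyclins CCNT1 and CCNT2, the BET proteins BRD2 and BRD3, and the elongation factor ELL2. They were chosen by name with earlier results of these data known, from 19775 genes measured in all. Each was read from the probe sets annotated to it alone. RNA levels came from Affymetrix Human U133 Plus 2.0 arrays of MV4;11, an acute myeloid leukaemia cell line with the MLL-AF4 fusion. Cells were held for 3 h in 25 nM cortistatin A (CA, 3 arrays) or in the solvent DMSO alone (3 arrays), and the labels give no other treatment to either group. Cortistatin A, a natural steroidal alkaloid, blocks the paired Mediator kinases CDK8 and CDK19. All arrays come from 1 line, and the labels describe wells in triplicate without saying that these were separate cultures. The p-values therefore speak only of the spread among these 6 samples, which may be technical.

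P-TEFb is the pair of CDK9 with cyclin T1 or T2. It phosphorylates RNA polymerase II and its pausing factors, and so lets paused polymerase move into the gene body. Much of the cell's P-TEFb is held inactive on the 7SK RNA, where HEXIM1 blocks the kinase, MEPCE caps the RNA and LARP7 binds its end. BET proteins read acetylated histones and help to bring active P-TEFb to chromatin, and ELL2 works beside P-TEFb in the super elongation complex, which MLL fusion proteins are known to recruit in leukaemia. HEXIM1 is widely used as a response marker of BET inhibitors, which raise its transcript.

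Across all genes, limma called 115 at a Benjamini-Hochberg adjusted p under 0.05, or 0.582%. Of these 27 were lower and 88 higher (0.445%) in cortistatin A. The groups of arrays did not overlap for 19.4% of all genes, and for 25% of those whose mean lay above the median of all values, as the main probe set of every member did. All 8 measured genes of a list of 10 myeloid markers lay above that median, and their summed signal on the linear scale was 6577 to 7208 in cortistatin A and 6584 to 7084 in DMSO. For 4 T cell markers, 2 of them above the median, that sum was 46.4 to 49.1 in cortistatin A and 46.2 to 52.1 in DMSO. For 3 of 4 B cell markers, 2 of them above the median, it was 58.7 to 69.0 in cortistatin A and 56.5 to 63.6 in DMSO. For 2 of 3 erythroid markers, all above the median, it was 37.6 to 45.2 in cortistatin A and 38.7 to 42.3 in DMSO. For 5 epithelial and fibroblast markers, 2 of them above the median, it was 210.0 to 223 in cortistatin A and 225 to 232 in DMSO. Those last ranges do not overlap, and the part of these transcripts in the results was not tested. In the myeloid list LYZ weighed most in the sum, with a log2 mean of 12.43 in cortistatin A and 12.40 in DMSO. SPI1 was lowest there, at 4.36 in each group. The B cell marker CD79A was at 5.14 and 5.10, and KRT18 of the epithelial list at 7.04 and 7.18.

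Of the 9 members 1 was called, HEXIM1, which was lower in cortistatin A, beside the 0.137% of all genes called lower. BRD2 (lower) and ELL2 (higher) had the next largest changes and came close to the threshold without passing it. The groups of arrays did not overlap for 6 of the 9 members, 5 of them lower (HEXIM1, BRD2, MEPCE, BRD3 and CCNT2) and 1 higher (ELL2) in cortistatin A, against 9.22% and 10.2% of all genes in those directions. The median change of the 9 members was -0.15 on the log2 scale, beside 0.0065 over all genes. The members were chosen with earlier results of these data known, so these counts are a description and not a test.

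The sequences just before the transcription start are shown for the member that was called, HEXIM1, for its paralogue HEXIM2, which lies on the same chromosome and strand and was not called, and for BRD2. They are the 250 bases upstream of the RefSeq start (GRCh38.p14), at chr17:45148225-45148474 for HEXIM1, chr17:45159924-45160173 for the first of the 2 HEXIM2 starts and chr6:32968344-32968593 for the first of the 4 BRD2 starts, all on the plus strand. Capitals mark matches, on either strand, to the CCAAT box (CCAAT), the TATA box (TATAAA), the GC box (GGGCGG), the E-box (CACGTG), the core of the cyclic AMP response element (TGACG) and the core of a heat shock element (GAANNTTC).
HEXIM1: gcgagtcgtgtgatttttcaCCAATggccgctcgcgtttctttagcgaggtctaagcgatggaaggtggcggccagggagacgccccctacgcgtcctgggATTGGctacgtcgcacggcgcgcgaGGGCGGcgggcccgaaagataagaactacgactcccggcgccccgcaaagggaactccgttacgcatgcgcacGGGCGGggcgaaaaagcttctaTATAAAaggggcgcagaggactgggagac
HEXIM2: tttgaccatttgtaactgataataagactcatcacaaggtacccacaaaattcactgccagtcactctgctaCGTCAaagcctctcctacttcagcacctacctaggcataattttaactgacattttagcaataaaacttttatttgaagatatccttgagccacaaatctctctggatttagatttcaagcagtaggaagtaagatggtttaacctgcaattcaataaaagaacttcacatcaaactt
BRD2: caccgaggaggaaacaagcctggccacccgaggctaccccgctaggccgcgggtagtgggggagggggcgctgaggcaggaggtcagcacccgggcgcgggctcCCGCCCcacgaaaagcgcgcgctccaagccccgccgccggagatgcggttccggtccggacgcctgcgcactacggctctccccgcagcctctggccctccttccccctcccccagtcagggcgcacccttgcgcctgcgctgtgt
HEXIM1 had a TATA box from base 29 to base 24 before the start, 2 GC boxes and 2 CCAAT boxes, none of which overlapped. At the first start HEXIM2 had 1 cyclic AMP element core and BRD2 had 1 GC box. The second HEXIM2 start, not printed, had 2 CCAAT boxes and 1 cyclic AMP element core, and starts 2 and 4 of BRD2 had 1 GC box each. A TATA box was found in 10.7% of the 35116 upstream windows of this length in the table, a CCAAT box in 32.0%, a GC box in 42.6%, a cyclic AMP element core in 21.2%, an E-box in 6.34% and a heat shock core in 5.78%. The 8 members in the table have 15 windows, of which 12 had a GC box, 5 a CCAAT box, 4 a cyclic AMP element core, 2 an E-box, 1 a TATA box and 0 a heat shock core. In CCNT1 an E-box and a cyclic AMP element core overlapped, in LARP7 2 such cores overlapped on opposite strands, and in BRD3 2 GC boxes did. These are matches of letters and were not tested as binding sites.

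HEXIM1, the protein that holds P-TEFb inactive on 7SK, read 7.59, 7.33 and 7.50 on the cortistatin A arrays, against 8.02, 8.03 and 8.17 on the DMSO arrays (log2 RMA values of its main probe set). Every cortistatin A array was below every DMSO array, with a gap of 0.44 between the groups. The mean was 7.47 ± 0.13 in cortistatin A and 8.08 ± 0.08 in DMSO (SD, n = 3 arrays each). HEXIM1 fell by 0.60 ± 0.08 on the log2 scale (limma SE, 95% interval -0.80 to -0.41), 1.52-fold, with a limma adjusted p of 0.0417. Among the 27 genes called lower it ranked 6 by the size of its fall. With RNA pooled from many cells, a fall in all cells and a loss in some of them cannot be told apart.

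A second HEXIM1 probe set, dimmer than the main one but above the median of all values, read 5.66, 5.77 and 5.77 in cortistatin A and 6.43, 6.23 and 6.35 in DMSO. Its change was -0.60, the same as that of the main probe set to 2 decimals, and its groups did not overlap either. The last HEXIM1 probe set was dim, meaning not above that median, with 2.78, 2.70 and 2.50 in cortistatin A and 2.76, 2.65 and 2.75 in DMSO, and overlapped (change -0.06). Both brighter probe sets are of the _s_at type, which can match related transcripts. When all 54613 probe sets were tested as such, the limma adjusted p was 0.0937 for the main probe set and 0.0626 for the second, and 0.0513% of all probe sets were called.

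The HEXIM1 call rested on all 6 arrays. Without any 1 of them (CA replicates 1, 2 and 3, DMSO replicates 1, 2 and 3, each in turn) the change was -0.66 to -0.53 and the limma adjusted p was 0.115 to 0.152. In those fits limma called only 0 to 4 of all genes. Leaving out the _x_at and _s_at types left the dim probe set alone (limma adjusted p = 0.844). The 3' minus 5' log2 signal of the beta-actin and GAPDH control probe sets grows as the 5' end gives less signal beside the 3' end. It averaged 1.50, 1.51 and 1.62 on the cortistatin A arrays and 1.43, 1.36 and 1.46 on the DMSO arrays. These groups did not overlap, and with this index as a covariate HEXIM1 was at -0.68 ± 0.14 (limma adjusted p = 0.421). That fit called 0 of all genes. Of the 15 alternative settings listed below, 6 called HEXIM1 (lowest limma adjusted p = 4.6e-05, with trend and robust variances).

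HEXIM2, the paralogue that can also bind 7SK and inhibit P-TEFb, read 4.94, 5.13 and 5.23 on the cortistatin A arrays, against 5.15, 5.21 and 4.75 on the DMSO arrays. Its groups overlapped on both of its probe sets, with a change of 0.06 ± 0.14 (limma adjusted p = 0.895, 95% interval -0.27 to 0.39). The log2 difference between HEXIM1 and HEXIM2 on the same array averaged 0.67 lower in cortistatin A (2.37 ± 0.24) than in DMSO (3.04 ± 0.33, SD, n = 3 arrays each), and the groups did not overlap. The two-sided exact permutation p was 0.1, the smallest that 3 against 3 arrays allow. It was 0.1 after adjustment over the 4 paralogue pairs compared.

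**Figure D1:**
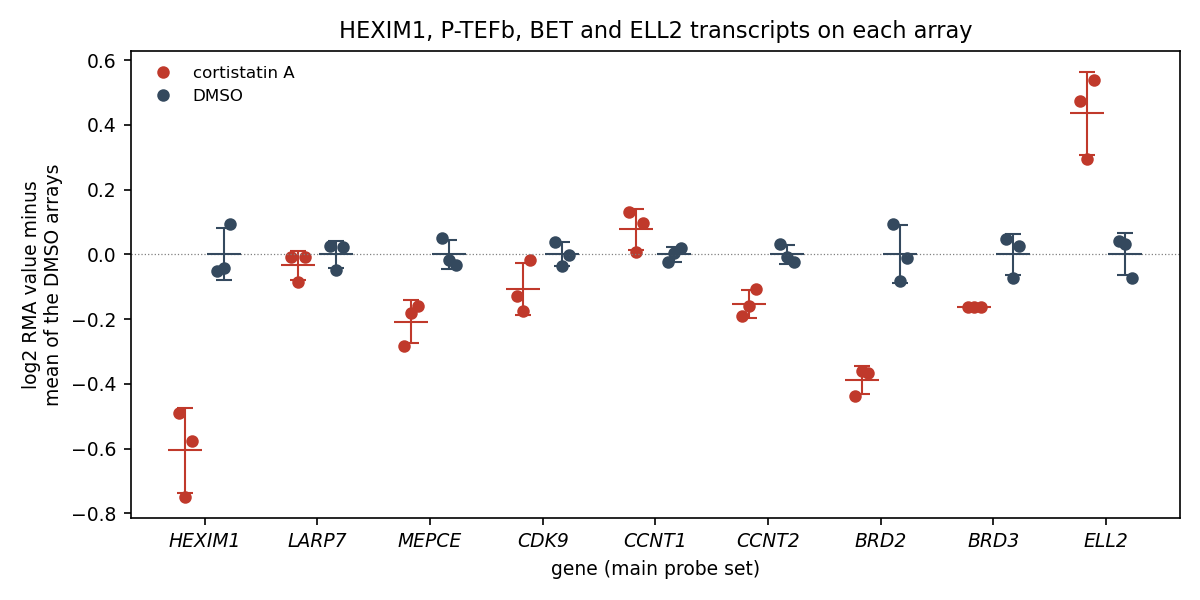
Log2 RMA value of each member's main probe set minus the mean of its DMSO arrays (vertical axis), with 1 point per array and the mean ± SD of 3 arrays, cortistatin A left of DMSO. HEXIM1 and BRD2 lie lower and ELL2 higher in cortistatin A with wide gaps, while LARP7, CDK9 and CCNT1 overlap.

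The 2 proteins that bind 7SK for its stability did not pass the test. MEPCE, the methyltransferase that caps 7SK, read 8.19, 8.30 and 8.32 on the cortistatin A arrays, against 8.53, 8.46 and 8.45 on the DMSO arrays. All 3 cortistatin A arrays were lower than all DMSO arrays, and the change was -0.21 ± 0.06 (limma adjusted p = 0.215, 95% interval -0.34 to -0.07). MEPCE has 1 single-gene probe set, of the _s_at type. LARP7, which binds the 3' end of 7SK, read 7.73, 7.65 and 7.73 on the cortistatin A arrays, against 7.77, 7.69 and 7.76 on the DMSO arrays, and overlapped. Its change was -0.03 ± 0.05 (limma adjusted p = 0.839). A second LARP7 probe set above the median of all values was at -0.34, with 4.31, 4.32 and 4.06 in cortistatin A and 4.63, 4.39 and 4.69 in DMSO. Its groups did not overlap, while those of the main probe set did. The dim last one was at -0.34. None of the 3 was called (limma adjusted p over all probe sets from 0.379 to 0.89).

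None of the 3 subunits of P-TEFb was called by limma. The kinase CDK9 read 6.78, 6.74 and 6.89 on the cortistatin A arrays, against 6.95, 6.87 and 6.91 on the DMSO arrays. The groups overlapped, and the change was -0.11 ± 0.06 (limma adjusted p = 0.523, 95% interval -0.25 to 0.03). Its other 2 probe sets were dim and lay at 0.23 and 0.08, so the mean of all CDK9 probe sets turned the sign, to 0.067. CCNT1, the cyclin T1 subunit, read 8.46, 8.34 and 8.43 on the cortistatin A arrays, against 8.31, 8.33 and 8.35 on the DMSO arrays. It overlapped, with a change of 0.08 ± 0.05 (limma adjusted p = 0.612) that turned to -0.015 with arrays centred on the median housekeeping level. CCNT2, the cyclin T2 subunit, read 6.62, 6.65 and 6.70 on the cortistatin A arrays, against 6.84, 6.80 and 6.78 on the DMSO arrays. Its groups did not overlap, but the change of -0.15 ± 0.05 was not called (limma adjusted p = 0.281), and its second probe set above the median of all values was at -0.02 and overlapped. Its 2 dim probe sets were at -0.20 and -0.10. On the same array CCNT1 minus CCNT2 was 1.75 ± 0.08 in cortistatin A and 1.52 ± 0.05 in DMSO (SD, n = 3 arrays each), without overlap (two-sided exact permutation p = 0.1, adjusted p = 0.1 over the 4 pairs).

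Both BET genes read lower on every cortistatin A array, but neither passed the limma test. BRD2, a BET protein that binds acetylated histone H4, read 8.19, 8.27 and 8.26 on the cortistatin A arrays, against 8.72, 8.54 and 8.62 on the DMSO arrays. The groups were 0.28 apart, and the change was -0.39 ± 0.06 (limma adjusted p = 0.0699, 95% interval -0.54 to -0.24), or 1.31-fold lower. All 3 BRD2 probe sets lay above the median of all values, none overlapped between groups, and their changes were -0.39, -0.41 and -0.42. All 3 are of the _x_at or _s_at types. With the mean of its probe sets in place of the brightest, BRD2 was at -0.40 and was called (limma adjusted p = 0.0381). It was also called when dim genes were left out of the fit (limma adjusted p = 0.0218). It was not called with the control index as a term (limma adjusted p = 0.425) or without any 1 array (limma adjusted p from 0.145 to 0.244). BRD3, its close relative, read 9.100, 9.100 and 9.098 on the cortistatin A arrays, against 9.307, 9.189 and 9.287 on the DMSO arrays. Each cortistatin A array was lower, with a change of -0.16 ± 0.05 (limma adjusted p = 0.278, 95% interval -0.29 to -0.04) and -0.17 on the second bright probe set, and 0.03 on a dim one. On the same array BRD2 minus BRD3 was -0.86 ± 0.04 in cortistatin A and -0.63 ± 0.04 in DMSO (SD, n = 3 arrays each), without overlap (two-sided exact permutation p = 0.1, adjusted p = 0.1 over the 4 pairs).

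ELL2, which raises the elongation rate of RNA polymerase II, was the member with the largest change upward. It read 6.438, 6.257 and 6.503 on the cortistatin A arrays, against 6.005, 5.997 and 5.889 on the DMSO arrays. Each cortistatin A array was above each DMSO array, and the change was 0.44 ± 0.08 (limma adjusted p = 0.0861, 95% interval 0.25 to 0.62), or 1.35-fold higher, which was not called. The other 3 ELL2 probe sets were at 0.25, 0.33 and 0.27, and the last 2 of these were dim and overlapped between groups. With dim genes left out, ELL2 was called (limma adjusted p = 0.0325). It was not called when its 4 probe sets were averaged (limma adjusted p = 0.118), with the control index as a term (0.522) or without any 1 array (0.111 to 0.273). Its relative ELL read 5.66, 5.71 and 5.67 on the cortistatin A arrays, against 5.78, 5.78 and 5.72 on the DMSO arrays, and was at -0.09 ± 0.05 (limma adjusted p = 0.531). ELL2 minus ELL on the same array was 0.72 ± 0.15 in cortistatin A and 0.20 ± 0.03 in DMSO (SD, n = 3 arrays each), without overlap (two-sided exact permutation p = 0.1, adjusted p = 0.1 over the 4 pairs).

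The members have 26 single-gene probe sets in all, 17 of them above the median of all values. Of these 17, 14 were lower and 3 higher in cortistatin A. Over all 26, 18 were lower and 8 higher, and the groups did not overlap for 14, against 16.5% of all probe sets. The limma test over all probe sets called 0 of the 26, and 0.0513% of all probe sets. An unadjusted limma p under 0.05 was found for 14 of the 26. Over all genes, by main probe set, that share was 12.6%, and over all probe sets it was not counted. By main probe set 7 of the 9 members were lower, against 47.6% of all genes. So were 40 of the 57 measured genes of the related lists below. The probe sets of one gene share its RNA and are not replicates.

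**Figure D2:**
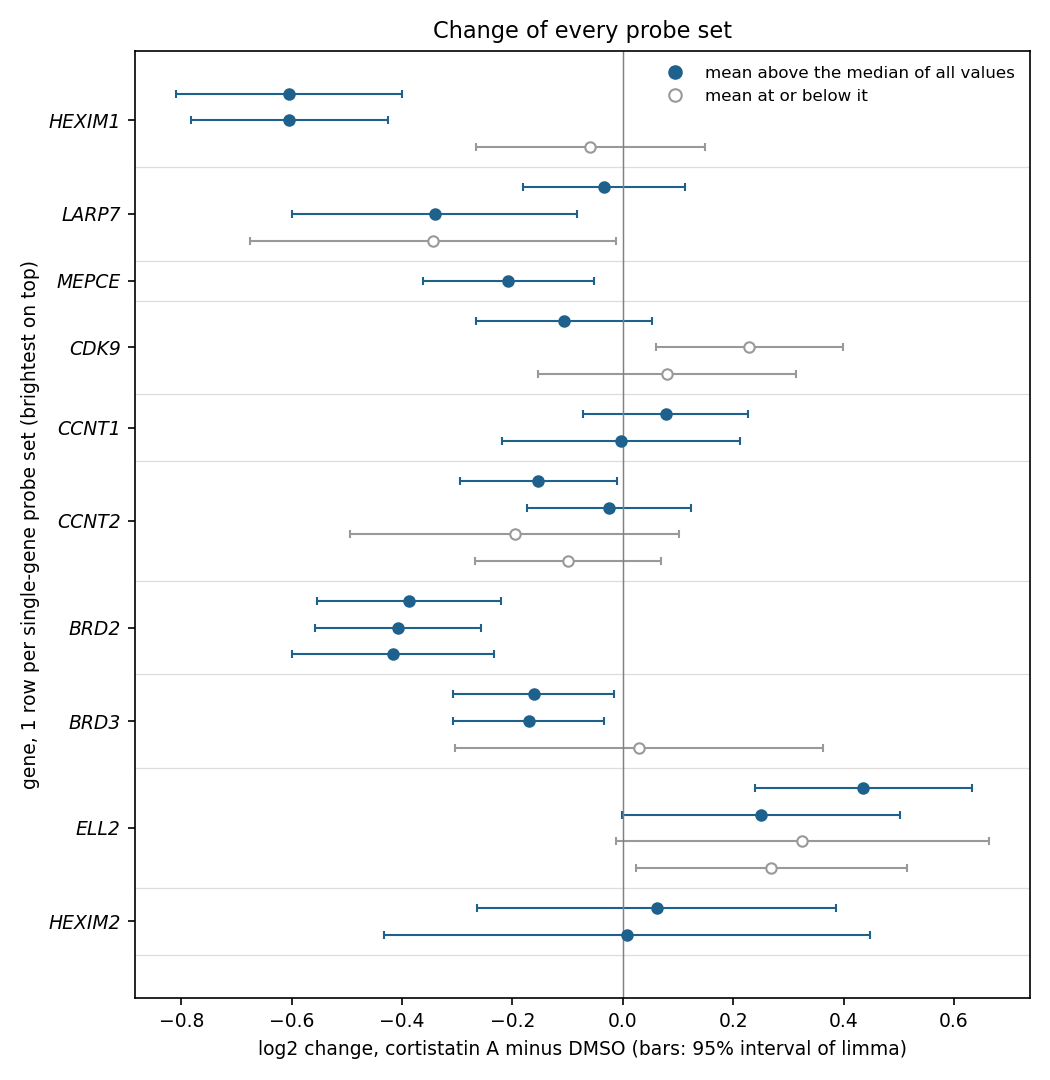
Log2 change, cortistatin A minus DMSO, of each single-gene probe set of the 9 members and of HEXIM2 (horizontal axis), with 95% intervals from limma over all probe sets. Filled points have a mean above the median of all values, and open points lie at or below it. The bright probe sets of HEXIM1, BRD2 and BRD3 lie left of 0 and all those of ELL2 right of 0.

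Other genes of the pathway were read from 6 lists, with 57 of 62 genes measured. Limma called 3 of the 57, all higher, against 0.445% of all genes called higher. All 3 were in the list of BET inhibitor response genes, which was put together with results of these arrays already known. The groups did not overlap for 22 of the 57, and 12 had an unadjusted limma p under 0.05, against 19.4% and 12.6% of all genes. Of 10 measured partners of 7SK and P-TEFb, HEXIM2 among them, 0 were called and 0 had an unadjusted limma p under 0.05 (median change -0.03, no overlap for 2). Their smallest p values belonged to JMJD6, a dioxygenase tied to BET proteins (0.12), the heterochromatin corepressor TRIM28 (-0.14), the RNA-binding protein HNRNPA1 (-0.08) and the phosphatase PPP1CA (-0.09), with limma adjusted p from 0.414 to 0.552. The 7SK RNA itself was not analysed here.

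Of 9 other genes of the super elongation complex 0 were called by limma and 3 had an unadjusted p under 0.05 (median -0.07). The groups did not overlap for 6 of the 9, 4 of them lower and 2 higher, against 9.22% and 10.2% of all genes. Among genes above the median of all values that share was 25%, in either direction. The gaps were narrow, from 0.009 to 0.060 log2 units, apart from 0.21 for MLLT3. MLLT3, a reader of acylated histones, was at -0.40 but was dim, with a mean of 2.25 in cortistatin A and 2.65 in DMSO (limma adjusted p = 0.14). AFF1, the scaffold fused to MLL in this line, was at 0.17, its relative AFF4 at -0.22 and ELL3 at -0.20 (limma adjusted p from 0.34 to 0.451). Of 10 measured pausing and elongation genes the groups did not overlap for 2 (20%, near the 19.4% of all genes). By limma 0 were called and 1 had an unadjusted p under 0.05 (median -0.0070). That one was NELFCD of the negative elongation factor (-0.11, limma adjusted p = 0.385). SUPT5H, a subunit of the pausing factor DSIF, was at 0.10, NELFB at 0.09 and PAF1 at 0.07.

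Of 9 genes of the other transcription kinases and their cyclins the groups did not overlap for 2 (22.2%, near the 19.4% of all genes). By limma 0 were called and 1 had an unadjusted p under 0.05 (median -0.05). It was CDK19, a target of the drug (-0.22, limma adjusted p = 0.249), with CDK7 at -0.15, CCNK at -0.07 and CCNH at 0.08. The other target, CDK8, was at -0.05 and overlapped between groups (limma adjusted p = 0.824). Of 13 measured relatives and partners of the BET proteins 0 were called and 4 had an unadjusted limma p under 0.05, all lower (median -0.14). These were the histone acetyltransferases EP300 (-0.23 ± 0.05, limma adjusted p = 0.131) and CREBBP (-0.17), the methyltransferase NSD3 (-0.14) and the chromatin remodelling subunit BPTF (-0.16). EP300 read 7.44, 7.41 and 7.46 on the cortistatin A arrays, against 7.67, 7.64 and 7.71 on the DMSO arrays, so its groups did not overlap. In that list the groups did not overlap for 6 of 13 genes, 5 of them lower, against 9.22% of all genes in that direction. Among genes above the median of all values the groups did not overlap for 25%, in either direction.

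**Figure D3:**
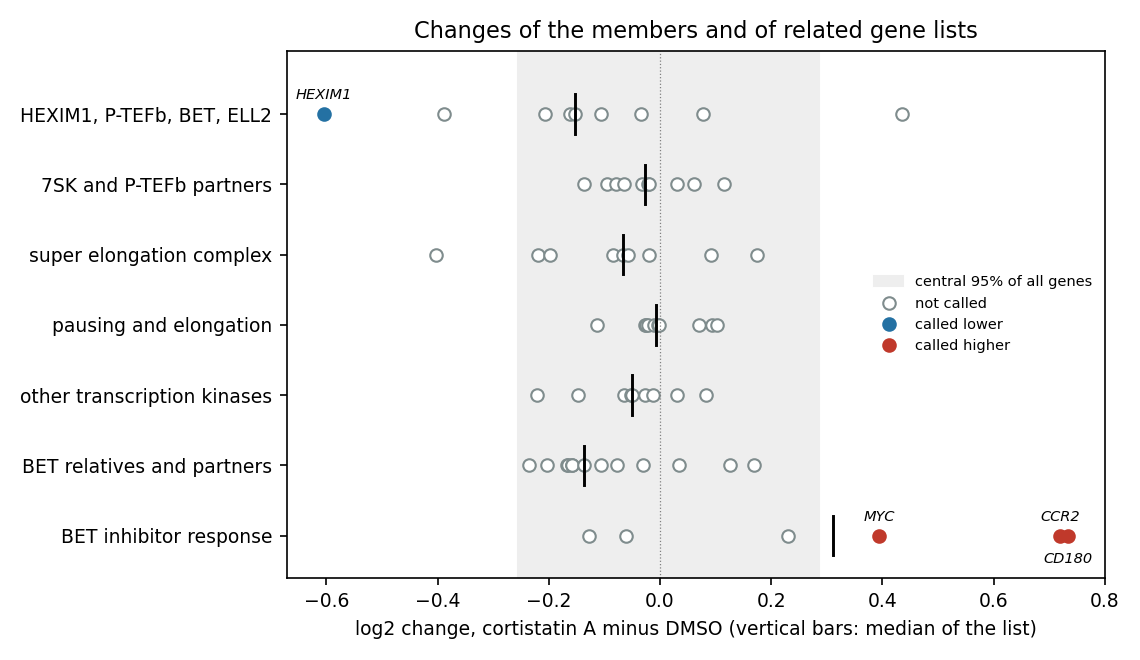
Log2 change, cortistatin A minus DMSO (horizontal axis), of the 9 members and of the measured genes of 6 related lists, 1 point per gene, with the median of each list as a vertical bar. The grey band holds the central 95% of all genes, from -0.26 to 0.29. Filled points passed the limma test: HEXIM1 lower, and MYC, CCR2 and CD180 higher.

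The list of 6 genes known to respond to BET inhibitors was put together with results of these arrays already known. In human leukaemia and blood cells BET inhibitors are known to raise HEXIM1 and SERPINI1 and to lower MYC, CCR2 and CD180. Here HEXIM1 was lower and MYC (0.39 ± 0.05, limma adjusted p = 0.0332), the chemokine receptor CCR2 (0.72 ± 0.05, limma adjusted p = 0.00838) and the Toll-like receptor relative CD180 (0.73 ± 0.05, limma adjusted p = 0.00838) rose. MYC read 11.12, 11.15 and 11.13 on the cortistatin A arrays, against 10.76, 10.69 and 10.77 on the DMSO arrays. CCR2 read 10.64, 10.71 and 10.64 on the cortistatin A arrays, against 9.96, 9.92 and 9.96 on the DMSO arrays. CD180 read 8.57, 8.53 and 8.50 on the cortistatin A arrays, against 7.78, 7.78 and 7.84 on the DMSO arrays. For these 3 genes all cortistatin A arrays lay above all DMSO arrays, the opposite side to HEXIM1. Without any 1 of the 6 arrays (CA replicates 1, 2 and 3, DMSO replicates 1, 2 and 3, each in turn), and with the control index of 3' against 5' signal as a term, limma called 0 of the 57 listed genes. SERPINI1, a serine protease inhibitor, read 4.19, 4.67 and 4.54 on the cortistatin A arrays, against 4.12, 4.37 and 4.22 on the DMSO arrays, and overlapped (0.23, limma adjusted p = 0.536). ZCCHC24 was at -0.13 and the histone gene H2BC21 at -0.06 (limma adjusted p of 0.412 and 0.854). All cortistatin A arrays of ZCCHC24 lay below its DMSO arrays, with a gap of 0.03, while H2BC21 was dim and overlapped. For ZCCHC24 and H2BC21 no direction under BET inhibitors is given here, so their changes were not set against one. No array of a BET inhibitor was analysed here, so no response to such a drug was measured.

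**Figure D4:**
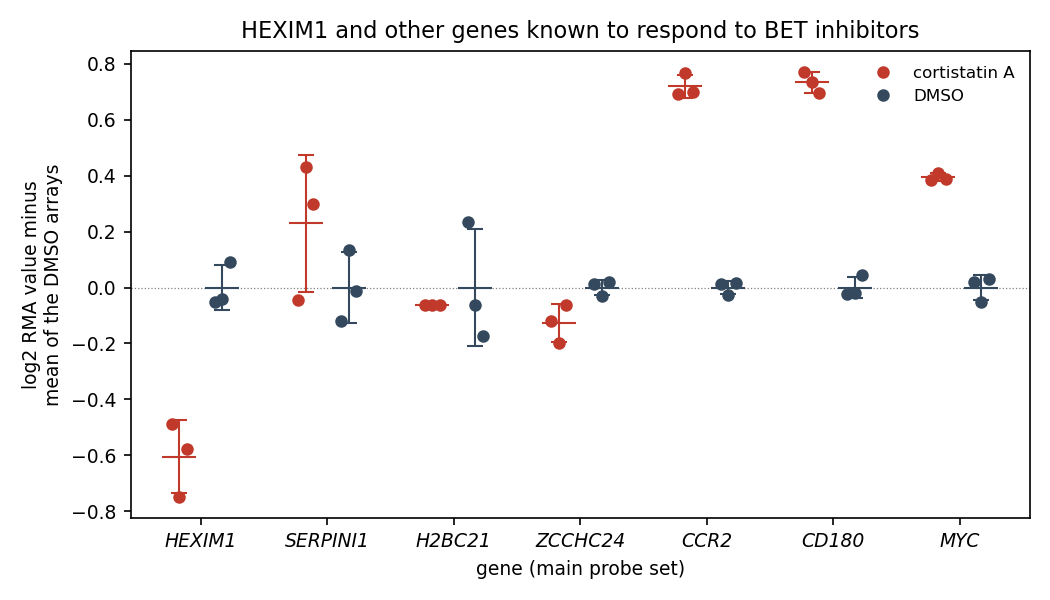
Log2 RMA value minus the mean of the DMSO arrays (vertical axis) for HEXIM1 and the 6 genes of the BET inhibitor response list, with 1 point per array and the mean ± SD of 3 arrays, cortistatin A left of DMSO. HEXIM1 and, by a narrow gap, ZCCHC24 are lower and CCR2, CD180 and MYC are higher on all 3 cortistatin A arrays, while SERPINI1 and H2BC21 overlap.

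The genes whose 6 values ran closest to those of HEXIM1 were sought among 12621 genes above the median of all values, by the mean absolute difference after each gene was centred on its own mean. They were PELI1, a ubiquitin ligase (0.045 log2 units from HEXIM1), PPP1R10, a nuclear regulator of protein phosphatase (0.053), INTS6L, a relative of an Integrator subunit (0.054), the atypical E2F repressor E2F7 (0.066) and RCAN3, a relative of calcineurin regulators (0.066). The median over all these genes was 0.30. PELI1 read 3.83, 3.67 and 3.89 in cortistatin A and 4.39, 4.43 and 4.47 in DMSO. All 5 were lower in cortistatin A without overlap, with changes from -0.63 to -0.48, and the first 4 were called, while RCAN3 was not (limma adjusted p = 0.061). The measure picks genes with a change of the same size and direction over 6 arrays, so these changes are a description of what it picked.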

How the data were processed

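RNA was measured on 6 single-colour Affymetrix arrays of MV4;11 cells, 3 with cortistatin A and 3 with DMSO, grouped by the titles. Per the submitters' processing notes the authors processed the arrays by RMA in affy (version not given), and the deposited values are taken as log2 because RMA returns log2 and the values run from 0.81 to 13.84. RMA usually includes quantile normalization, which would remove a shift common to all transcripts. RNA came from a column kit or TRIzol per the labels, and the sources used here tie no array to either, so it was not tested as a batch. No genome build or scanner file was used, and no depth applies to arrays.

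Of 54675 probe sets 41091 name 1 gene in the platform annotation, with symbols updated through RefSeq for 41037. The brightest single-gene probe set by its mean over 6 arrays stood for each gene. The test was limma 3.58.1, run in R 4.3.3 (moderated fit with group as the only term, two-sided, adjusted p under 0.05, 4 residual and 2.68 prior degrees of freedom), fitted over all 19775 genes, and only the rows needed were read. The fit was also run on simulated arrays with known changes. That outcome is not given here, and no statement rests on it. Pairs of arrays correlated at 0.9958 to 0.9972, and no pair shared more than 678 equal values, so none was a copy. Named were all members, the listed genes called or with the 4 smallest p of a list, HEXIM2, and the 5 closest patterns to HEXIM1. ELL, SERPINI1, H2BC21 and CDK8 fall outside this rule and were named after their values were seen. The members and lists were chosen with earlier results of these data known. Promoter sequences are from RefSeq (GRCh38.p14), and 8 of 9 members matched. Alternatives were a replicate block, a fit without dim genes (those not above the median value), the mean of all probe sets, no _x_at or _s_at types, a further quantile normalization, centring on 16 housekeeping genes, trend and robust variances, the control index of 3' against 5' signal as a term, and each array left out. Housekeeping centring used each gene's deviation from its own mean. Centring on the median level of these genes was added after the data were seen.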

Additional observations from a re-analysis of the deposited data

How the results depend on the processing

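The number of members called was 1 with the settings reported, with a further quantile normalization and with housekeeping centring. It was 3 with dim genes left out (HEXIM1, BRD2 and ELL2). With the mean of all probe sets and with centring on the median housekeeping level it was 2 each (HEXIM1 and BRD2). Trend and robust variances called 5 (HEXIM1, MEPCE, BRD2, BRD3 and ELL2). The number was 0 without the _x_at and _s_at types and with the control index of 3' against 5' signal as a term. It was also 0 with the replicate block or without any 1 array (0 to 0). Without those types 7 members were measured. The number of all genes called was 115, and 321 with dim genes left out, where fewer genes were tested, 76 with the mean of all probe sets, 54 without the _x_at and _s_at types, 762 with trend and robust variances, 0 with the index, 0 with the replicate block and 0 to 4 without 1 array. Of the fits that called 0, that with the index had 1805 genes at an unadjusted limma p under 0.05, that with the block 2243, and those without CA replicate 1, CA replicate 3, DMSO replicate 1 and DMSO replicate 2 had 1952 to 2342. Centring on the median housekeeping level called 49 genes higher and 91 lower (35% higher, against 76.5%), and put the housekeeping list's own median change at -0.095, against -0.0024 with the settings reported, which called 0 of its 16 genes (1 with an unadjusted limma p under 0.05). The number of listed pathway genes called was 3, and 6 with trend and robust variances, 0 with the index, 0 with the replicate block and 0 to 0 without 1 array. Of the 26 probe sets of the members 0 were called, 7 with trend and robust variances, and 0 to 0 without 1 array. The sign turned for CDK9 with the mean of all probe sets (0.067) and for CCNT1 with centring on the median housekeeping level (-0.015). HEXIM1 stayed below 0 in all 15 alternatives (-0.70 to -0.06), BRD2 in all 14 that measured it (-0.48 to -0.34), and ELL2 above 0 in all 15 (0.32 to 0.51). With the replicate block the limma adjusted p was 0.196 for HEXIM1, 0.290 for BRD2 and 0.295 for ELL2. Apart from fewer genes or samples in a fit, the cause of these differences was not tested. Same-numbered arrays did not deviate together (correlations of -0.07, 0.0079 and -0.03), so the numbers were not taken as pairs. The number of arrays limits the precision, and dim probe sets compress changes.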
